A study of Mus musculus with 13 samples.

Results

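The comparison described here set 4 dystrophin-deficient mdx mice that received only the dosing vehicle against 3 mdx mice that received no treatment. These 7 plasma samples of the 13 in the series were chosen by their names, which carry the word vehicle (mice 40, 41, 42 and 43) or naivemdx (mice 36, 37 and 39). The study tested Givinostat, an inhibitor of histone deacetylases, in the mdx model of Duchenne muscular dystrophy, and sequenced small RNA from plasma taken after the dosing period. The other 6 samples were 3 naive wild-type (wt) mice and 3 mdx mice dosed with Givinostat at 37.5 mg/kg. All 7 mice of the comparison carried the mdx mutation of the dystrophin gene; the treatment notes give their strain as C57BL10ScSn-Dmdmdx/J, whereas the strain label reads C57BL/10J for every sample. They were male mice bought as young adults. The vehicle mice were gavaged with 0.5% methylcellulose on 5 days a week for 15 weeks, and the naive mdx mice were not gavaged. According to the paper, naive mice also took the functional tests of grip strength and treadmill running. The question is therefore how far the plasma miRNA profile of an mdx mouse moved with repeated gavage of the vehicle, and how much drug-free mdx mice differed from each other. The comparison cannot tell apart the methylcellulose, the gavage and the handling that came with both.

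miRNAs are short RNAs that lead a silencing complex to messenger RNAs, mostly through bases 2 to 8 at their 5′ end, the seed. Cells release them into blood inside vesicles, bound to protein or through a damaged membrane. In mdx mice, muscle fibers without dystrophin tear and leak, and the muscle miRNAs miR-206, miR-1a and miR-133a are known to build up in plasma. Plasma also carries miRNAs from liver (miR-122), red blood cells (miR-451a, miR-486), white blood cells (miR-223, miR-150) and vessel walls (miR-126). The level in plasma cannot tell release by more cells from more release per cell.

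The sequences of most of the miRNAs with the smallest p-values in each direction, and of miR-17-3p, whose groups did not overlap, are shown to compare their seeds. Letters are 5′ to 3′ from RefSeq, with bases 2 to 8 in capitals. The first group was higher on average in the vehicle mice.
let-7c-5p: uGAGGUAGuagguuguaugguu
let-7b-5p: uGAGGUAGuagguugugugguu
miR-196a-5p: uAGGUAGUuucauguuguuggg
miR-27b-5p: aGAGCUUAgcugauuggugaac
miR-30e-3p: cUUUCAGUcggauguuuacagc
miR-26a-5p: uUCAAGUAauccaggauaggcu
miR-155-5p: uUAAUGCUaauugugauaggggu
miR-675-5p: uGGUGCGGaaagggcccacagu
The second group was lower on average in the vehicle mice.
miR-434-3p: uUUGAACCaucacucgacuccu
miR-136-3p: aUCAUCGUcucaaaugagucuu
miR-141-3p: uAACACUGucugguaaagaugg
miR-29c-3p: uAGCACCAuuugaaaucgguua
miR-223-3p: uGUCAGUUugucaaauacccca
miR-17-3p: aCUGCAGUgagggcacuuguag
let-7b-3p: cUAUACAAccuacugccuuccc
let-7c-5p and let-7b-5p share 1 seed with each other and with 7 other tested miRNAs, and their sequences differ at 1 base. The paper mapped short reads with no mismatches allowed, so an error-free full-length read of one does not match the other. Among the sequences shown, no other seed was shared in the first group, and none within the second group or between the groups. miR-486a-5p, miR-140-5p, miR-5107-5p, miR-147-3p, miR-8114 and miR-877-5p, described below as well, are named only.

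In GRCm38, let-7c-5p is encoded at chr15:85706616-85706637 (+), in an exon of the noncoding gene Lncppara, and at chr16:77599672-77599693 (+), in an intron of Mir99ahg. let-7b-5p lies close by in Lncppara, at chr15:85707325-85707346 (+). miR-27b-5p lies at chr13:63300718-63300739 (+) in 2010111I01Rik, within an annotated exon. miR-675-5p lies at chr7:142577112-142577133 (-) in an exon of H19. miR-434-3p (chr12:109594565-109594586, +) and miR-136-3p (chr12:109595366-109595387, +) are neighbours, both opposite the protein-coding exon of Rtl1 in the imprinted Dlk1-Dio3 region. miR-141-3p lies at chr6:124717917-124717938 (-) and miR-17-3p at chr14:115043721-115043742 (+) in the host gene Mir17hg.

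No miRNA differed between vehicle and naive mdx mice at an adjusted p under 0.05. Of 368 miRNAs tested by edgeR's quasi-likelihood test with Benjamini-Hochberg adjustment, 0 were called higher and 0 lower (0% in each direction), and the smallest adjusted p was 0.801. Without adjustment, 17 (4.62%) had a p under 0.05, with 10 higher (2.72%) and 7 lower (1.9%) in vehicle mice. DESeq2 called 0 of 1203 miRNAs, with 14 above and 6 below the naive mdx level at an unadjusted p under 0.05, and a smallest adjusted p of 1. In 8 of the 368 miRNAs (2.17%) the vehicle and naive mdx mice did not overlap. These were let-7c-5p, let-7b-5p, miR-27b-5p and miR-140-5p, above in every vehicle mouse (1.09%), and miR-434-3p, miR-141-3p, miR-5107-5p and miR-17-3p, below in every vehicle mouse (1.09%). With mice shuffled between groups of these sizes, the chance of no overlap in either direction is 0.0571 for a miRNA. The observed 2.17% is lower than that chance. The 4.62% with an unadjusted p under 0.05 is likewise no more than that threshold gives by chance. The miRNAs share libraries, so neither share was tested. The separations set out below are descriptions.

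Most fold changes were small. The median log2 fold change, vehicle over naive mdx, was -0.13, and 139 of 368 miRNAs (37.8%) had a fold change above 0, whereas 229 (62.2%) had one below 0. This split rested on the scaling: with library totals the median was -0.34 and 20.9% lay above 0, with the deposited log2 values it was -0.30 and 20.7%, and with DESeq2-type RLE factors it was -0.08 and 41.6%. Only 10 miRNAs differed by more than 2-fold on average (a log2 change over 1) and none by more than 4-fold.

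**Figure D1:**
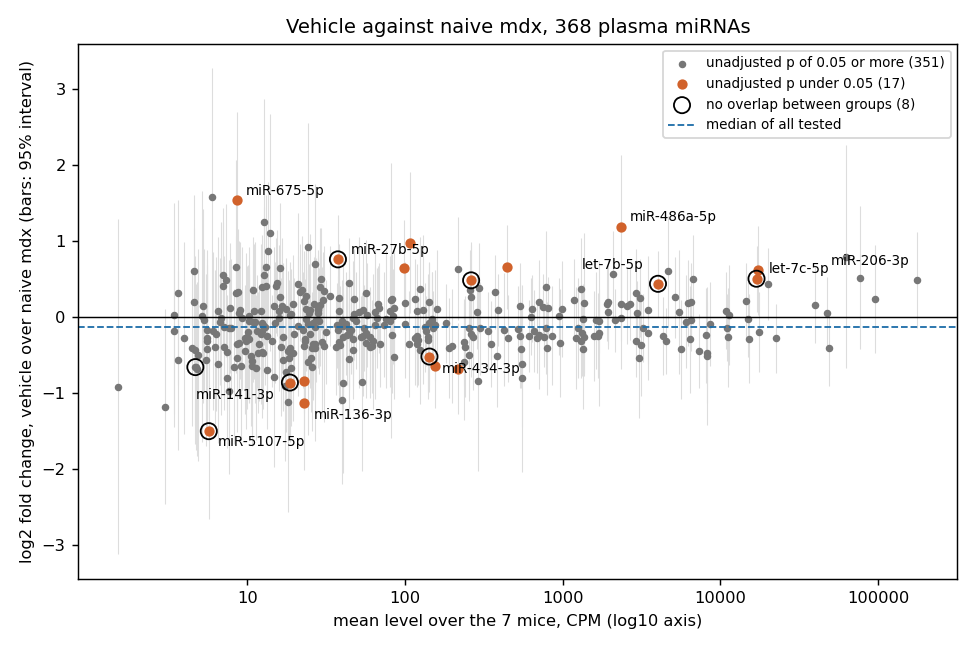
Mean level over the 7 mice in CPM (counts scaled to a common library size, log axis) against the log2 fold change of vehicle over naive mdx for 368 miRNAs, with 95% intervals as grey bars. The 17 orange points have an unadjusted p under 0.05, the 8 ringed points have no overlap between groups, and the cloud lies around a median of -0.13 (dashed).

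The intervals show how narrowly the fit bounded each fold change. Its estimate of the spread drew on all 13 libraries, not on these 7 mice alone. The median SD of log2(CPM + 1) was 0.33 in wt and 0.29 in Givinostat mice, against 0.43 in naive mdx and 0.41 in vehicle mice. For 193 of 368 miRNAs (52.4%) the whole 95% interval of the fold change lay between a halving and a doubling. Precision followed abundance: this held for 6 of 59 miRNAs under 10 CPM, 78 of 161 from 10 to 100 CPM, 55 of 77 from 100 to 1000 CPM and 54 of 71 at 1000 CPM or more. The median interval reached 1.64-fold to either side. The 7 libraries held 1167161 to 1556118 counts, and 3 counts, the most that a reading of 0 allows, were worth 1.63 (mouse 39) to 2.31 CPM (mouse 42) on the scale used here (counting error only). With 1 library per mouse, the p-values rest on the spread between mice. Nothing in the sources used here says how the mice were divided over extraction or sequencing days.

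Among miRNAs with a higher mean in vehicle mice, the clearest separation at a high level was that of let-7c-5p, a member of the let-7 family that is widely expressed in differentiated tissue. Its level was 13877, 14990 and 12165 CPM in naive mdx mice 36, 37 and 39, and 21828, 21319, 15244 and 19206 CPM in vehicle mice 40, 41, 42 and 43. The lowest vehicle mouse, 42, lay just above the highest naive mdx mouse, 37. The log2 fold change was 0.50 (SE 0.20, edgeR adjusted p = 0.801). let-7b-5p was at 3330, 3102 and 3599 CPM in naive mdx and 5931, 4217, 3607 and 4358 CPM in vehicle mice. Here too the groups were separate, but vehicle mouse 42 lay only just above naive mdx mouse 39, and the log2 fold change was 0.44 (SE 0.21).

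miR-27b-5p is the minor strand of the miR-27b hairpin. It was at 20.7, 36.8 and 23.4 CPM in naive mdx and 41.9, 47.8, 54.6 and 37.8 CPM in vehicle mice. Every vehicle mouse was higher, and the log2 fold change was 0.76 (SE 0.28), whereas the major strand miR-27b-3p ranged from 4237 to 13443 CPM in naive mdx and from 5322 to 8451 CPM in vehicle mice, with the vehicle range inside the other. miR-140-5p, known from cartilage, was at 190, 202 and 250 CPM in naive mdx and 311, 366, 256 and 263 CPM in vehicle mice. The groups did not overlap, with a log2 fold change of 0.48 (SE 0.22).

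**Figure D2:**
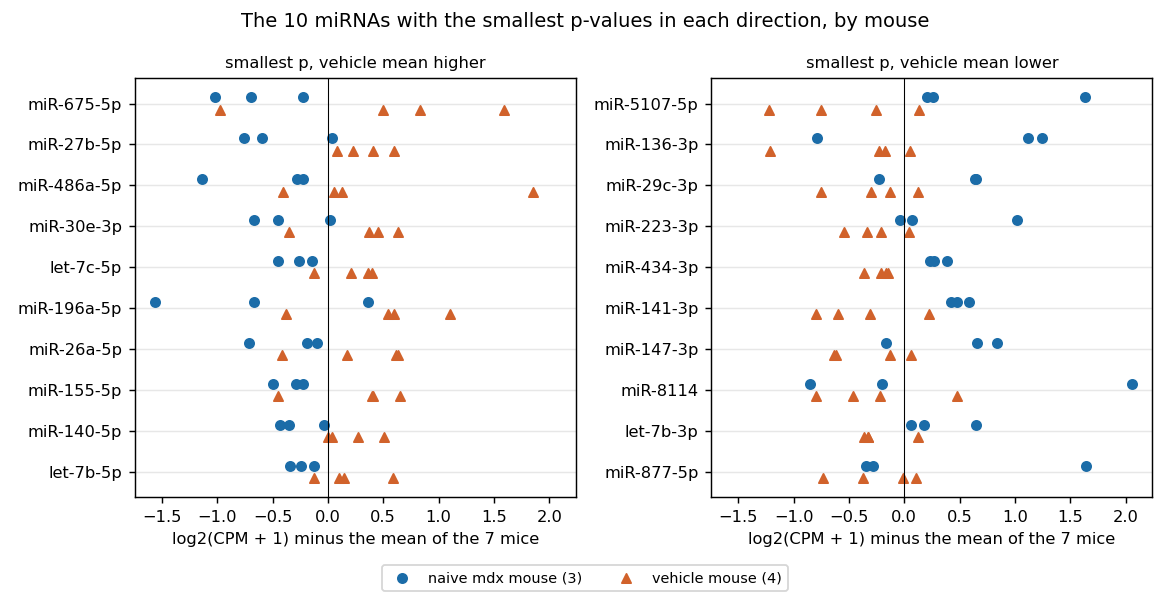
Levels by mouse of the 10 miRNAs with the smallest p-values in each direction, as log2(CPM + 1) minus the mean of the 7 mice. Circles are the 3 naive mdx mice and triangles the 4 vehicle mice. let-7c-5p, let-7b-5p, miR-27b-5p, miR-140-5p, miR-434-3p, miR-141-3p and miR-5107-5p show no overlap, while miR-8114 and miR-877-5p have 1 naive mdx mouse far to the right.

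The other miRNAs with small p-values and a higher vehicle mean overlapped between groups. miR-26a-5p, an abundant miRNA of muscle and many other tissues, was at 10001, 15403 and 14428 CPM in naive mdx and 25483, 25123, 18481 and 12335 CPM in vehicle mice. Vehicle mouse 43 fell among the naive mdx values (log2 fold change 0.62, SE 0.28). The same mouse was the low vehicle mouse for miR-30e-3p, which was at 264, 426 and 306 CPM against 651, 575, 542 and 329 CPM (0.66, SE 0.26), and for miR-155-5p, a miRNA of activated immune cells, at 76.4, 79.9 and 66.3 CPM against 148, 125, 124 and 68.5 CPM (0.65, SE 0.30). miR-196a-5p, encoded within the Hox clusters, spread from 30.7 to 120 CPM in naive mdx and from 71.2 to 200 CPM in vehicle mice.

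miR-675-5p, cut from the imprinted fetal RNA H19, had the smallest p of all (0.0119 by edgeR before adjustment). It was read 9, 4 and 7 times in naive mdx mice and 32, 4, 13 and 20 times in vehicle mice, or 2.83 to 5.64 against 2.94 to 22.3 CPM. Mouse 41 lay at the naive mdx level while the other 3 vehicle mice were above it, and the log2 fold change was 1.54 (SE 0.55). Without mouse 41 it was 1.90 (SE 0.47), with an edgeR adjusted p of 0.280. The other arm of the hairpin, miR-675-3p, was read 4, 5 and 12 times in naive mdx and 9, 4, 5 and 10 times in vehicle mice (0.20, SE 0.45).

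miR-486a-5p, a miRNA of red blood cells and muscle, had a log2 fold change of 1.19 (SE 0.45) that came largely from 1 mouse. It was at 1619, 1562 and 860 CPM in naive mdx mice and at 1970, 6822, 1430 and 2067 CPM in vehicle mice, with mouse 41 more than 3-fold above the next. The identical copy miR-486b-5p had its lowest value of the 7 in the same mouse, at 2575 CPM against 2929 to 8326 CPM in the others. miR-486a-5p made up 72.6% of the pair in mouse 41, and 12.2% to 25.4% in the other 12 mice of the series. Reads of the copies can be assigned to either. With both summed, mouse 41 was at 9397 CPM, within the 3789 to 9945 CPM of the other 6, and the log2 fold change was 0.41 (SE 0.31).

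On the lower side, miR-434-3p was the most even. This miRNA of the Dlk1-Dio3 region stood at 169, 184 and 166 CPM in naive mdx and 126, 121, 109 and 125 CPM in vehicle mice. Every vehicle mouse was lower than every naive mdx mouse, and the log2 fold change was -0.52 (SE 0.22, edgeR adjusted p = 0.801). Its pooled spread between mice of a group was 0.09 on the log2(CPM + 1) scale, among the smallest 5 of the miRNAs with at least 100 CPM. miR-141-3p, an epithelial miRNA of the miR-200 group, was at 23.8, 24.8 and 26.6 CPM against 11.2, 20.6, 13.9 and 9.61 CPM. The groups did not overlap (-0.86, SE 0.37).

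The remaining separations were at few reads. miR-5107-5p was read 26, 8 and 10 times in naive mdx mice and 2, 5, 3 and 8 times in vehicle mice, and miR-17-3p 10, 7 and 12 times against 6, 5, 6 and 4 times. Their vehicle levels were 1.40 to 5.12 and 2.56 to 4.62 CPM, so both rest on few reads. Their log2 fold changes were -1.50 (SE 0.54) and -0.66 (SE 0.36).

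miR-136-3p, the neighbour of miR-434-3p, was at 10.6, 46.7 and 42.9 CPM in naive mdx and 7.68, 16.2, 16.9 and 19.9 CPM in vehicle mice. Naive mdx mice 37 and 39 were higher than every vehicle mouse, and mouse 36 was not. The log2 fold change was -1.13 (SE 0.41). Without mouse 36 it was -1.55 (SE 0.32), with an edgeR adjusted p of 0.0687, the smallest reached in any setting tried. miR-147-3p followed a like order, with 18.8, 33.9 and 38.6 CPM against 13.3, 22.1, 19.2 and 13.5 CPM (-0.84, SE 0.37). The other arm of the miR-136 hairpin, miR-136-5p, did not go with miR-136-3p. It was read 10, 13 and 19 times in naive mdx and 7, 22, 15 and 7 times in vehicle mice (0.09, SE 0.43).

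miR-29c-3p, of the miR-29 family that represses collagen genes, was at 125, 230 and 232 CPM in naive mdx and 119, 135, 161 and 87.1 CPM in vehicle mice. Again mouse 36 alone overlapped the vehicle mice (-0.64, SE 0.26). The far more abundant miR-29a-3p with the same seed was at 5886, 11202 and 8887 CPM against 5293, 7384, 6117 and 6644 CPM (-0.45, SE 0.23). miR-223-3p, the main miRNA of neutrophils, showed the reverse: mouse 36 held 412 CPM, whereas mice 37 and 39, at 197 and 213 CPM, were near the vehicle mice at 209, 176, 160 and 139 CPM (-0.68, SE 0.28). For miR-8114 and miR-877-5p the lower vehicle mean rested on mouse 36. It held 129 and 48.2 CPM, against 16.3 to 42.3 CPM and at least 8.46 CPM in the other 6 mice, of which mouse 43 was highest in both. Without it their log2 fold changes were 0.33 and 0.11 in place of -1.09 and -0.91.

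The 9 tested let-7 guide strands all had a fold change above 0, where 37.8% of all tested miRNAs did. Their median was 0.19 (range 0.06 to 0.50) against -0.13 for all, 2 of them had an unadjusted p under 0.05, and 0 were called. The number above 0 moved with the shift that each scaling gave to all miRNAs, and was 9 of 9 under RLE and upper-quartile factors, 5 of 9 with library totals and 4 of 9 with the deposited log2 values. Relative to the median of all tested miRNAs, the let-7 median was 0.32 higher with TMM factors, and 0.30, 0.32, 0.34 and 0.29 higher in those 4 settings. Without mouse 36, 6 of 9 were above 0 and the let-7 median was 0.13 above that of all. The opposite arm of the let-7b hairpin, let-7b-3p, was lower on average, at 131, 94.1 and 86.9 CPM in naive mdx and 66.3, 66.2, 64.6 and 90.9 CPM in vehicle mice (-0.53, SE 0.26). Of 95 hairpins with both arms tested, 54 had arms on the same side of 0 and 41 on opposite sides.

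Of 20 lists of miRNAs grouped by tissue, family or locus, no member of any was called. The lists overlap, and their members share libraries, so their medians are descriptions. The 9 tested epithelial miRNAs, the 8 tested members of a list known from dystrophic muscle and the 4 myeloid ones were all below 0, with medians of -0.28, -0.25 and -0.24. Of all tested miRNAs 62.2% lay below 0, and relative to their median of -0.13 these list medians were at -0.15, -0.12 and -0.11. The 5 tested members of the miR-25/92 seed family were also below 0, with a median of -0.42. Without mouse 36, 3 of these 5 were above 0. The epithelial list includes miR-200b-3p (838 to 1582 CPM in vehicle and 1294 to 1681 CPM in naive mdx mice) and miR-215-5p (6942 to 14106 and 12017 to 12785 CPM). The dystrophic muscle list includes miR-22-3p, an abundant muscle miRNA, which was at 44520, 76333 and 50523 CPM in naive mdx and 37206, 36887, 48704 and 48682 CPM in vehicle mice (-0.41, SE 0.23). Without naive mdx mouse 37, its highest, the log2 fold change of miR-22-3p was -0.12. The list also includes miR-21a-5p, known from fibrosis and inflammation, at 9510 to 19533 CPM in vehicle and 10595 to 20275 CPM in naive mdx mice.

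The 4 vessel miRNAs and the 5 tested neuronal ones were all above 0, with medians of 0.38 and 0.34. miR-126a-3p, made by endothelium, was at 2815, 3743 and 4196 CPM in naive mdx and 4426, 9822, 4054 and 3529 CPM in vehicle mice, with mouse 41 alone above the rest (0.61, SE 0.34). miR-143-3p of smooth muscle was at 3316, 7462 and 5528 CPM against 6833, 9945, 8444 and 5422 CPM. With library totals 3 of 4 vessel and 3 of 5 neuronal miRNAs were above 0, and with the deposited log2 values 2 of 4 and 3 of 5. Relative to the median of all tested miRNAs, the vessel median was 0.51 higher with TMM factors, 0.54 with library totals and 0.42 with the deposited values, and the neuronal median 0.47, 0.46 and 0.44. In the Dlk1-Dio3 list 18 of 31 members were tested, 14 of them below 0, with a median of -0.27 and 2 with an unadjusted p under 0.05 (miR-136-3p and miR-434-3p), beside 62.2% and 4.62% of all tested miRNAs. Without mouse 36, where the filter run again kept 21 members, the median was -0.46, and without mouse 39 it was 0.0025.

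**Figure D3:**
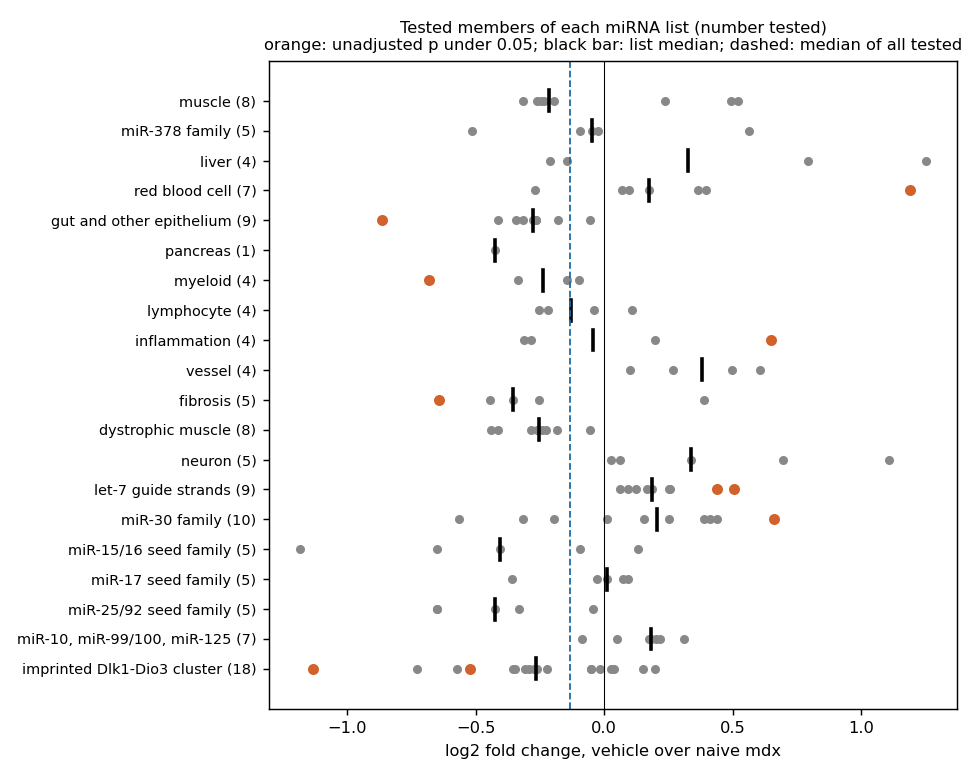
Log2 fold change of vehicle over naive mdx for every tested member of 20 miRNA lists, with the number tested in brackets. Orange points have an unadjusted p under 0.05, black bars are list medians, and the dashed line is the median of all 368 miRNAs (-0.13). The 9 let-7 guide strands lie to the right of 0 and the 9 epithelial miRNAs to the left, and most lists straddle 0.

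Muscle miRNAs took a large share of the plasma counts in both groups, and the groups overlapped. The 12 listed muscle miRNAs together made up 28.3%, 39.7% and 30.2% of the counts in naive mdx mice and 42.6%, 38.6%, 40.3% and 35.5% in vehicle mice. Naive mdx mouse 37 lay within the vehicle range and the other two below it. The means were 32.7% ± 6.12 (SD, n = 3) and 39.3% ± 2.99 (SD, n = 4), a difference of 6.52 percentage points (two-sided exact permutation p = 0.171, adjusted over 4 measures 0.571; the smallest p that 3 against 4 mice allow is 0.0571). With each mouse left out in turn, the difference ranged from 4.32 (without mouse 36) to 10.0 percentage points (without mouse 37).

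miR-206-3p, the most abundant miRNA of the 7 libraries, is made by skeletal muscle and its regenerating fibers. Its level was 90942, 201626 and 140541 CPM in naive mdx and 224141, 208219, 210895 and 168422 CPM in vehicle mice. Mouse 37 overlapped the vehicle mice, and the log2 fold change was 0.49 (SE 0.30, 95% interval -0.14 to 1.12). The log2 fold change of miR-206-3p was 0.25 without mouse 36 and 0.82 without mouse 37. miR-133a-3p, also of striated muscle, was at 88797, 112416 and 59255 CPM against 128409, 64175, 113082 and 103611 CPM (0.24, SE 0.33). miR-1a-3p ranged from 25999 to 105434 CPM in naive mdx and from 45960 to 146569 CPM in vehicle mice (0.52, SE 0.45). The groups overlapped widely in both. The log2 fold change of miR-1a-3p was 0.16 without mouse 42 and 1.17 without mouse 37, and that of miR-133a-3p was 0.084 without mouse 39 and 0.51 without mouse 37.

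The minor strands and less abundant muscle miRNAs were on the other side of 0. miR-133a-5p was at 606, 1424 and 782 CPM against 901, 692, 866 and 704 CPM (-0.25, SE 0.31). miR-133b-3p (-0.23), miR-499-5p (-0.26), miR-1a-1-5p (-0.32) and miR-208b-3p, a cardiac and slow-fiber miRNA (-0.20), had SEs of 0.34 to 0.42. So 3 of 8 tested muscle members were above 0 and 5 below, with a median of -0.22, which was 0.21 without naive mdx mouse 37. In the miR-378 family, rich in muscle, 1 of 5 was above 0, with a median of -0.046. Under RLE and upper-quartile factors 3 of 5 were above 0, and without mouse 37 the median was 0.36. miR-378a-5p was at 1619, 2144 and 1179 CPM against 3184, 1601, 2532 and 2420 CPM (0.56, SE 0.27), while miR-378b was at 282, 619 and 478 CPM against 221, 398, 325 and 341 CPM (-0.52, SE 0.31).

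**Figure D4:**
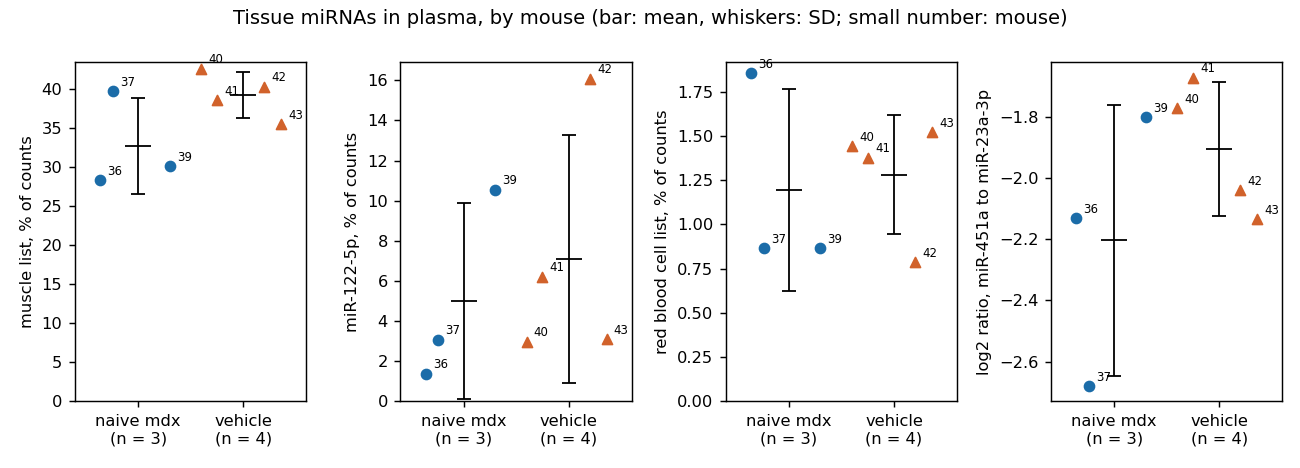
Share of counts of the muscle list, of miR-122-5p and of the red blood cell list, and the log2 of miR-451a over miR-23a-3p, in each of 3 naive mdx and 4 vehicle mice. Bars are means and whiskers SD; the groups overlap in all 4 panels, with mouse 42 highest in miR-122-5p at 16.1% and mouse 37 lowest in the ratio at -2.68.

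The liver miRNA miR-122-5p was the most variable of the abundant miRNAs. It took 1.37%, 3.07% and 10.6% of the counts in naive mdx mice 36, 37 and 39, and 2.98%, 6.21%, 16.1% and 3.09% in vehicle mice 40, 41, 42 and 43. Mice 39 and 42 were high in their groups, and the ranges overlapped. The difference of 2.09 percentage points (two-sided exact permutation p = 0.686) was -0.91 without mouse 42. miR-122-3p from the same hairpin was also highest in mouse 42, at 46.2 CPM against 5.12 to 10.3 CPM in the other vehicle mice and 2.51 to 12.0 CPM in naive mdx mice. Of the other liver-rich miRNAs, miR-192-5p was at 2835, 3441 and 5082 CPM against 2180, 4561, 3925 and 2419 CPM, and miR-194-5p at 1084, 1248 and 1643 CPM against 873, 1732, 1537 and 658 CPM. In both, mouse 39 was again the highest naive mdx mouse, and mice 41 and 42 were the 2 highest vehicle mice.

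Red blood cell miRNAs, which enter plasma when cells lyse during bleeding, overlapped between the groups. The 7 listed members took 1.85%, 0.866% and 0.865% of the counts in naive mdx and 1.44%, 1.38%, 0.787% and 1.52% in vehicle mice (two-sided exact permutation p = 0.743). The list includes miR-486a-5p and miR-486b-5p, and miR-486 is also a miRNA of muscle. The sum of these 2 was 3789 to 9945 CPM in naive mdx and 1728 to 2752 CPM in wt mice. The share therefore cannot tell red blood cells from muscle. miR-451a, specific to red blood cells, was at 2397, 2216 and 2875 CPM against 3346, 2944, 2615 and 2365 CPM (0.17, SE 0.22). Lysis is often read from miR-451a divided by miR-23a-3p, and the log2 of that ratio was -2.13, -2.68 and -1.80 in naive mdx and -1.77, -1.67, -2.04 and -2.14 in vehicle mice (two-sided exact permutation p = 0.286). The lymphocyte miRNA miR-150-5p and miR-375-3p, of pancreatic islets and gut, were each highest in mouse 36, at 3769 and 2760 CPM, against 613 to 2265 and 704 to 1311 CPM in the other 6 mice.

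For scale, the same fit compared naive mdx with naive wt mice, and 160 of 368 miRNAs were called there (43.5%), 99 of them higher and 61 lower in naive mdx. This comparison shares the naive mdx mice with the one described, so the values are only set side by side. For the 49 miRNAs more than 4-fold higher in naive mdx than in wt, the median log2 difference from wt was 3.16 in size and the median difference between vehicle and naive mdx was 0.36 in size. In all 49, which were chosen for that size, the 95% interval of vehicle over naive mdx lay inside the size of the mdx-wt difference. The same held for 89 of the 99 higher, 47 of the 61 lower and 149 of all 368 tested miRNAs. For miR-206-3p, the log2 fold change was 4.26 for naive mdx over wt (5490 to 9808 CPM in wt) beside 0.49 for vehicle over naive mdx. For let-7c-5p it was -1.20 (30564 to 31996 CPM in wt) beside 0.50, and for miR-434-3p 0.29 beside -0.52. miR-92b-3p was at 58.3, 21.2 and 21.7 CPM in naive mdx and 29.3, 27.9, 27.7 and 22.4 CPM in vehicle mice (-0.33, SE 0.47).

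How much drug-free mdx mice differ was read from the spread within each group. The median SD of log2(CPM + 1) over the 368 miRNAs was 0.43 among the 3 naive mdx mice and 0.41 among the 4 vehicle mice. Pairs of naive mdx mice lay a root mean square log2 distance of 0.60 to 1.04 apart, pairs of vehicle mice 0.62 to 0.95, and pairs across the groups 0.59 to 1.07. The mean distance was 0.75 between a vehicle and a naive mdx mouse, 0.73 between vehicle mice and 0.84 between naive mdx mice, while the distance from these mice to wt mice was 1.28 to 1.85. Of the naive mdx pairs, those with mouse 36 were 1.04 and 0.90 apart, and mice 37 and 39 were 0.60 apart. The first principal component of the 7 libraries took 45.5% of the variance and did not divide the groups. Mouse 36 (11.6), mouse 43 (6.32) and mouse 40 (2.58) lay on one side, and mice 39 (-3.30), 42 (-3.54), 37 (-5.77) and 41 (-7.91) on the other.

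Naive mdx mouse 36 stood apart most often. It held the highest of the 7 values for 95 of 368 miRNAs (25.8%) and the lowest for 72 (19.6%), where an even share would be 14.3%. Its library was the smallest, with 1167161 counts, and had the largest TMM factor of the 7, 1.37. Without it the median SD among naive mdx mice, then 2, was 0.24. A median of SDs from fewer mice tends to be lower by itself. Among vehicle mice without mouse 43, then 3, it was 0.36, in place of 0.41 among all 4. Leaving out mouse 36 gave 12 miRNAs above and 28 below the naive mdx level at an unadjusted p under 0.05, of 382 tested. Leaving out mouse 37 gave 16 and 15 of 386, mouse 43 gave 19 and 12 of 363, and mouse 41 gave 10 and 9 of 364. These shares were above the 4.62% with no mouse left out. Mouse 39 gave 7 and 7 of 380, mouse 42 gave 10 and 4 of 364, and mouse 40 gave 9 and 2 of 365. Each time the filter was run again, and 0 were called by edgeR after adjustment.

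The deviations of the libraries followed the base composition of the miRNAs, in both groups. Some GC-rich and GC-poor miRNAs that varied widely between the mice are shown with G and C in capitals, and miR-206-3p beside them as the most abundant one.
miR-296-5p: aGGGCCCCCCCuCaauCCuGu
miR-615-3p: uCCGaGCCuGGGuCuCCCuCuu
miR-206-3p: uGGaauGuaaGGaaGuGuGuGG
miR-9-5p: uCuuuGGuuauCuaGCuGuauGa
G and C made up 66.7%, 63.6%, 45.5% and 34.8% of these sequences. miR-615-3p, from an intron of Hoxc5 (chr15:103014969-103014990, +), was at 1238, 344 and 605 CPM in naive mdx and 307, 109, 310 and 938 CPM in vehicle mice, so that mouse 36 of one group and mouse 43 of the other were highest. miR-296-5p (chr2:174267093-174267113, -) was highest in mouse 36 as well, at 65.1 CPM, and lowest in mouse 41, at 5.88 CPM. miR-9-5p, a neuronal miRNA, had its 2 lowest values in mice 36 and 43, at 1.25 and 2.56 CPM (2 and 4 reads), against 10.3 to 28.6 CPM in the other 5.

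Over the 319 tested miRNAs with a RefSeq sequence (86.7%), the Spearman correlation of GC content with a library's deviation from the mean of the 7 mice was 0.50 in mouse 36, -0.39 in mouse 37 and -0.35 in mouse 39. In vehicle mice 40, 41, 42 and 43 it was 0.17, -0.46, -0.35 and 0.57. These are descriptions across miRNAs, which share each library's depth and scaling. For the 52 miRNAs with at least 60% G and C, the median deviation was 0.67 in mouse 36 and 0.31 in mouse 43, and between -0.32 and 0.09 in the other 5. For the 50 with less than 40%, it was -0.30 in mouse 36, -0.53 in mouse 43 and between -0.10 and 0.42 in the others. Both groups held libraries of each kind, and the correlation of GC content with the fold change of vehicle over naive mdx was -0.08. With a GC offset for each library, chosen after seeing the data, 0 of 319 miRNAs were called, with a smallest edgeR adjusted p of 0.349; 14 above and 4 below 0 had an unadjusted p under 0.05. The median SD between mice of a group, 0.45 for these 319 miRNAs, was then 0.39. The offset was fitted to each library's deviations from the mean of all 13 libraries, wt and Givinostat mice included. It thus drew on these same values, which by itself tends to lower the SD.

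**Figure D5:**
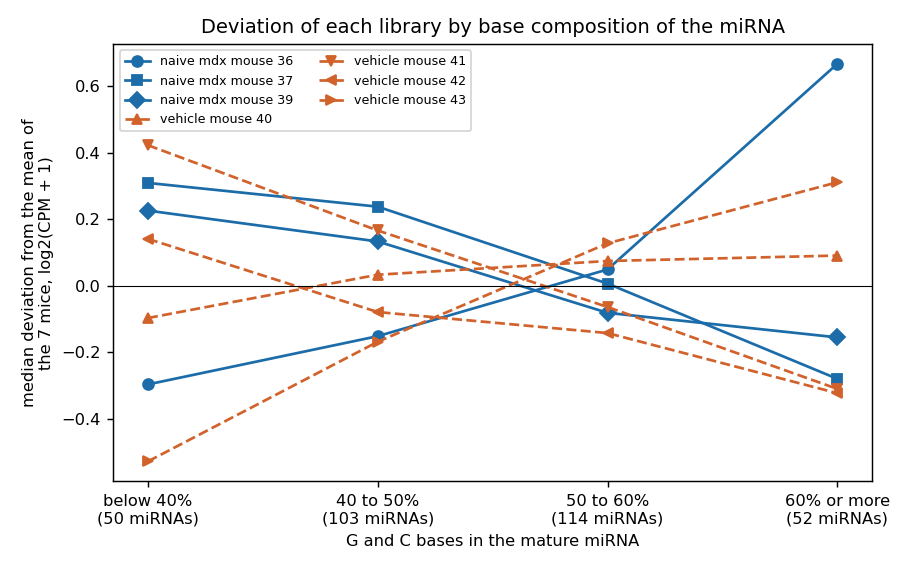
Median deviation from the mean of the 7 mice, in log2(CPM + 1), for 319 miRNAs in 4 classes of GC content, with a line for each of 3 naive mdx (solid) and 4 vehicle mice (dashed). The lines of mice 36 and 43 climb from -0.30 and -0.53 to 0.67 and 0.31, those of mice 37, 39, 41 and 42 descend, and that of mouse 40 is nearly flat.

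The least variable miRNAs give the other end of the range. miR-25-3p, found in red blood cells and many tissues, was at 7070, 6040 and 6710 CPM in naive mdx and 6197, 6298, 6420 and 6735 CPM in vehicle mice. Its 95% interval for the log2 fold change was -0.45 to 0.36. Below the count filter, 3 miRNAs were read in every naive mdx mouse and in no vehicle mouse. miR-376a-3p and miR-341-5p had 1 count in each naive mdx mouse, and miR-8096 had 1, 1 and 2 counts, all within what a count of 0 allows. None was read in every vehicle mouse and in no naive mdx mouse.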

How the data were processed

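Small RNA of mouse plasma was sequenced with 1 library per mouse (13 mice, 7 of them in this comparison). The authors trimmed the reads, mapped them to GRCm38 with Bowtie, annotated miRNAs with miRBase and deposited raw counts per mature miRNA; the submitters' processing notes name bcl2fastq 1.37.0, cutadapt 1.4.2, Bowtie 1.0.0 and mm10. The authors also deposited log2 values of scaled counts, used only in an alternative. Mice were grouped by sample title; 0 columns were left unmapped. Counts were scaled by TMM, filtered with filterByExpr by group (minimum count 10) and fitted with edgeR 4.0.16 (R 4.3.3; glmQLFit, legacy = FALSE) over all 13 libraries, 1 mean per group. CPM values are on that scale, and miRNAs were called at an adjusted p under 0.05. DESeq2 1.42.0 and limma 3.58.1 gave alternatives. Single values per mouse were compared by exact permutation. The procedure was tested on simulated data. The members and lists were chosen with earlier results of these data known. Named miRNAs were the 10 smallest p in each direction, the 10 most abundant, and the 10 most and 5 least variable. Also named were members of the tissue lists, up to 4 of each other list, miRNAs read in 1 group only and those named by the paper. Picked after their values were seen were miR-17-3p, miR-27b-3p, miR-140-3p, miR-30e-5p, miR-136-5p and miR-675-3p. So were the muscle, epithelial and other members beyond these. Sequences and positions are from RefSeq (GRCm38.p6) and host genes from GENCODE M21. Libraries of a group were checked for copies, and every pair differed. Other alternatives were the scaling, the filter, the samples fitted, a lysis covariate, miR-122-5p left out, miR-486 copies summed, a GC offset and each library left out.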

Additional observations from a re-analysis of the deposited data

Results flagged for a closer look

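In 5 of the 56 values per group examined, 1 of the 4 vehicle mice lay far from the other 3 by Dixon's test. Chance alone passes this test in about 1 group in 20 where values are normally distributed and not picked. Here CPM values were untransformed and some miRNAs were named for a small p or a wide spread, so that rate is no reference. Vehicle mouse 41 held 3 of the 5: miR-486a-5p at 6822 CPM with the next mouse at 2067 CPM, miR-126a-3p at 9822 CPM with the next at 4426 CPM, and miR-133b-3p at 369 CPM with the next at 727 CPM. In mouse 42, miR-122-3p was at 46.2 CPM with the next at 10.3 CPM. In mouse 43, let-7b-3p was at 90.9 CPM with the next at 66.3 CPM. The cause was not tested.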

How the results depend on the processing

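No paired analysis was possible because the groups share no mouse numbers. The count of called miRNAs was 0 in each direction, and 0 list members were called, under every alternative listed and with each library left out. The smallest edgeR adjusted p was 0.0687 (miR-136-3p, without mouse 36), and 0.114 with no count filter (miR-486a-5p). Settings other than the GC offset were combined with each miRNA whose fold change is printed, except miR-140-3p, miR-30e-5p, miR-136-5p and miR-675-3p. Over these 973 combinations, 957 kept their direction, 16 had the other and 0 were called. miR-451a had log2 fold changes of -0.045 with library totals, -0.028 by limma on the deposited log2 values with either pseudocount and -0.0098 with the lysis ratio as a covariate, under which miR-133a-5p was at 0.015 and miR-133b-3p at 0.15. With each library left out in turn, fold changes ranged from -1.46 to 0.33 for miR-8114, -1.19 to 0.11 for miR-877-5p, -0.52 to 0.32 for miR-92b-3p, -0.47 to 0.21 for miR-133a-5p, -0.41 to 0.14 for miR-133b-3p, -0.64 to 0.0039 for miR-499-5p, -0.62 to 0.089 for miR-1a-1-5p and -0.47 to 0.085 for miR-208b-3p. The difference in the share of miR-122-5p ranged from -0.91 (without mouse 42) to 4.87 percentage points (without mouse 39), and that of the red blood cell list from -0.078 to 0.42 percentage points. The median SD between mice of a group was 0.40 to 0.49 with mice left out and 0.40 with a pseudocount of 5, against 0.46. With the GC offset it was 0.39, against 0.45 without the offset for the same 319 miRNAs. The cause of these shifts was not tested. Levels under 10 CPM rest on few reads.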
